A study of Mus musculus with 96 samples.

Results

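The 5 genes described here belong to the plasminogen activator system: Serpinb2 and Serpine2, which encode inhibitors of plasminogen activators, Plau and Plat, which encode the activators themselves, and Plaur, which encodes the cell-surface receptor of the Plau protein. They were taken by symbol from a table of 15895 genes, and all 5 are in it. Serpinb2 was chosen by its measured values, as the gene with the largest rise of the series after serum, so its change against starved cells is given as a description with no test. The other 4 were chosen for their role and were tested.

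Mouse embryonic fibroblasts (MEF), connective tissue cells grown from day 13 embryos, were held for 36 h in medium with 0.5% fetal calf serum and then given serum to 20%. RNA was sequenced in 2 time courses, which the labels call Cycle 1 and Cycle 2, to follow transcription through the cell cycle. Cycle 1 has 63 libraries used here, taken between -1 h and 38 h of serum, and Cycle 2 has 32 libraries up to 27 h. Another labelled library of Cycle 1 matched no column of values by name and was left out. The cells at -1 h and 0 h are called starved here, and each value was compared with the starved cells of the same Cycle. All groups are MEF primary cells with no engineered allele and differ in the hour after serum alone. The labels do not say that the libraries of a Cycle came from separate embryos or separate starvations, so p-values measure the spread between libraries, which may be technical.

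Plasminogen is a circulating zymogen that is cut to the protease plasmin by urokinase (the Plau product) or tissue-type plasminogen activator (the Plat product). Plasmin dissolves fibrin, degrades matrix proteins and activates other proteases, and the urokinase receptor concentrates this activity at the cell surface. The activators are held in check by serpins, protease inhibitors that trap their target in a covalent complex, and fibroblasts are known to switch several of these genes on when quiescent cells meet serum.

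The depth of the libraries ran from 5068424 to 14492754 reads, with a median of 10834236. The values are a normalized signal in which every library is scaled to a total of 10000000, so that 1 unit is about 1 read in a library of that size. All 12 fibroblast markers looked up were in the table, and their summed level fell from between 526757 and 541999 in starved Cycle 1 cells to between 179032 and 211333 at 24 to 27 h, and from between 362197 and 380573 to between 175975 and 188153 in Cycle 2. Col1a1, Col1a2 and Vim had the highest medians of these markers, with 60060, 54460 and 47760, against 528 for Twist1. The fibroblast sum therefore mainly follows a few abundant genes. The starved cells of the 2 Cycles did not start from the same level: Serpinb2 was 2.20 times, Plau 2.03 times and Plaur 2.53 times as high in Cycle 2 as in Cycle 1. For these genes some libraries stand apart from their neighbours in time. They are the 24.5 h and 26 h libraries of Cycle 1 and the 20 h and 27 h libraries of Cycle 2. At 26 h of Cycle 1 Serpinb2 was at 76.6, against 139 at 25 h and 127 at 27 h. Plat was at 104 there, against 161 and 192, and Plau at 1091, against 873 and 879. That 26 h library was not left out on its own in any alternative. The samples are cultures measured as a whole, so fewer cells of a type and less RNA per cell cannot be told apart.

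In the mm9 build that the values were made with, Serpinb2 lies on the plus strand at chr1:109408000-109432055 and Serpine2 on the minus strand at chr1:79790772-79855271. Plau is at chr14:21655884-21662610, Plaur at chr7:25247519-25260892 and Plat at chr8:23868216-23893319, all on the plus strand. RefSeq promoter windows of the GRCm38.p6 build were matched by symbol for 3 of the 5 genes, Serpinb2, Plaur and Serpine2. The 250 bases before the start site are printed for these 3, the members for which a window was available. None was available for Plau and Plat, which also rose, so the 3 were not chosen by their course. Capitals mark the letters TGANTCA, the AP-1 motif bound by the Fos and Jun factors of the serum response, and TATAAA, the TATA box. Both strands were searched.
Serpinb2 promoter (chr1:107511173-107511422, plus strand): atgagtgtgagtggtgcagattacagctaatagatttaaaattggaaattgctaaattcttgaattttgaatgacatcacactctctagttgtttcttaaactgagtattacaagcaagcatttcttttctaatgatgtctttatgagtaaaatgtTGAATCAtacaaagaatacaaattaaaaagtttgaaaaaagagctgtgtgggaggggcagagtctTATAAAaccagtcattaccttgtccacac
Plaur promoter (chr7:24462233-24462482, plus strand): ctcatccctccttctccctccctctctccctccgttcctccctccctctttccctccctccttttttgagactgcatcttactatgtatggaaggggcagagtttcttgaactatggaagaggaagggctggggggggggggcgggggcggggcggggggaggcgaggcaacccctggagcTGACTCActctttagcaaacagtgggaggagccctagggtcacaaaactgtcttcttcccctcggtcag
Serpine2 promoter (chr1:79858666-79858915, minus strand): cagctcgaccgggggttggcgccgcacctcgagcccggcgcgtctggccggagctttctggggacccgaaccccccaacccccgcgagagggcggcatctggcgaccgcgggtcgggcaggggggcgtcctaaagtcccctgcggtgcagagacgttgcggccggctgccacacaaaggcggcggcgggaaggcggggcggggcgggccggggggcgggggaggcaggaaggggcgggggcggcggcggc

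Counting from -1 at the base before the start site, the Serpinb2 window holds TGAATCA at -94 to -88 and TATAAA at -29 to -24. RefSeq gives Serpinb2 another start site further downstream, from which the same letters lie at -181 to -175 and at -116 to -111. The Plaur window holds TGACTCA at -69 to -63, and GGGCGG, the GC box, at 3 places that overlap or adjoin one another. No AP-1 or TATA letters are in the Serpine2 window, which holds GGGCGG at 6 places, some of them overlapping. The letters of the cyclic AMP response element, TGACGTCA, are in none of these windows. Of 32851 RefSeq promoter windows of this length, 6.75% hold the AP-1 letters, 12.4% the TATA letters, 32.7% the GC box and 1.55% the cyclic AMP response element. A match is a description of the letters and does not show that a factor binds there.

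Serpinb2 encodes plasminogen activator inhibitor type 2, which inhibits urokinase and is largely kept inside the cell. It was almost silent in starved cells, climbed for 8 h and had left most of its peak level by the next day. In starved Cycle 1 cells it was at 13.5 and 4.56, which are 9 and 5 reads, with exact 95% Poisson intervals of the value from 6.19 to 25.7 and from 1.48 to 10.6 that cover counting error only. In starved Cycle 2 cells it was at 22.4 and 17.3. The first hour already set the genes apart: in Cycle 2 Serpinb2 was at 22.2 at 0.5 h, inside the starved range, and at 91.2 at 1 h, above it.

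From there Serpinb2 rose in both Cycles without a plateau until 6 h. In Cycle 1 the libraries of 1, 1.5, 2, 2.5 and 3 h held 50.6, 238, 457, 668 and 1122, and those of 4, 5 and 6 h held 1939, 4273 and 7148. In Cycle 2 those of 1.5, 2, 2.5 and 3 h held 352, 1037, 1410 and 2298, and those of 4, 5 and 6 h held 3876, 5855 and 8458. Cycle 2 was thus ahead at each of these hours, by 2.27 times at 2 h, the widest gap of the 29 shared hours after serum. Both Cycles had their highest value at 8 h, 10048 in Cycle 1 and 8889 in Cycle 2. These peaks are 1111 and 448 times the starved mean of the same Cycle. The fold of Cycle 1 rests on the few starved reads given above and is 2204 when 0 h alone is the reference, while the peak values of the 2 Cycles are close to each other.

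The way down was as steady as the way up. Over the 7 libraries of Cycle 1 from 7 h to 10 h Serpinb2 ran from 7929 to 10048 with a median of 8146, and in Cycle 2 it was at 8667, 8889, 6925 and 5639 at the 4 hours of this window. It first fell below the midpoint between the starved mean and the peak at 12 h in both Cycles, with 4458 in Cycle 1 and 3649 in Cycle 2. Between 10 h and 23 h, a span chosen after the values were seen, the log2 value fell by 0.42 (SE 0.0082, n = 26 libraries) per hour in Cycle 1 and by 0.37 (SE 0.013, n = 14 libraries) per hour in Cycle 2, which is a halving every 2.37 h and every 2.70 h, the latter 2.71 h without the 20 h library. These SEs take successive libraries of 1 course as independent and do not measure the spread between courses. At 24 to 27 h the level of Serpinb2 was 113 ± 32.9 (SD, n = 5) in Cycle 1 and 178 ± 40.4 (SD, n = 4) in Cycle 2. Without the 24.5 h library the mean of Cycle 1 was 122 ± 30.7 (SD, n = 4). Each of these 9 libraries was still above both starved libraries of its Cycle. In all, 60 of 61 libraries after serum in Cycle 1 and 29 of 30 in Cycle 2 were above both, the exceptions being 38 h of Cycle 1, at 13.2, and 0.5 h of Cycle 2.

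Macrophages are a known source of Serpinb2, and 9 of the 10 macrophage markers looked up were in the table. Their summed level was 1233 and 1294 in starved Cycle 1 cells and ran from 968 to 1492 at 7 to 10 h, when Serpinb2 was highest, and in Cycle 2 it was 3660 and 3752 in starved cells and ran from 3143 to 3747 at those hours. The sum was highest at 1 to 3 h, up to 1947 and 5140, and C1qa was at 0 in 1 library. Lyz2 had by far the highest median of the 9 with 744, against 105 for Csf1r and 20.4 for Ptprc, so the macrophage sum mainly follows Lyz2. The summed level of the 4 neural markers used was higher in the hours of the Serpinb2 rise, going from between 715 and 732 to between 3676 and 4829 at 4 to 6 h in Cycle 1 and from between 1123 and 1159 to between 2445 and 2915 in Cycle 2. Nes, an intermediate filament gene that proliferating mesenchymal cells also use, gave most of that sum with a median of 1803, against 22.4 for Sox10 and 5.88 for Gfap, which was at 0 in 4 libraries. The summed level of the 6 epithelial markers was higher too, going from between 319 and 346 in starved cells to between 541 and 652 at 4 to 6 h in Cycle 1 and from between 110 and 116 to between 185 and 232 in Cycle 2. Krt18 gave most of it with a median of 107, while Epcam was at 0 in 3 libraries, Krt14 in 5 and Krt5 in 18. The part of these cells in the result was not tested.

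**Figure D1:**
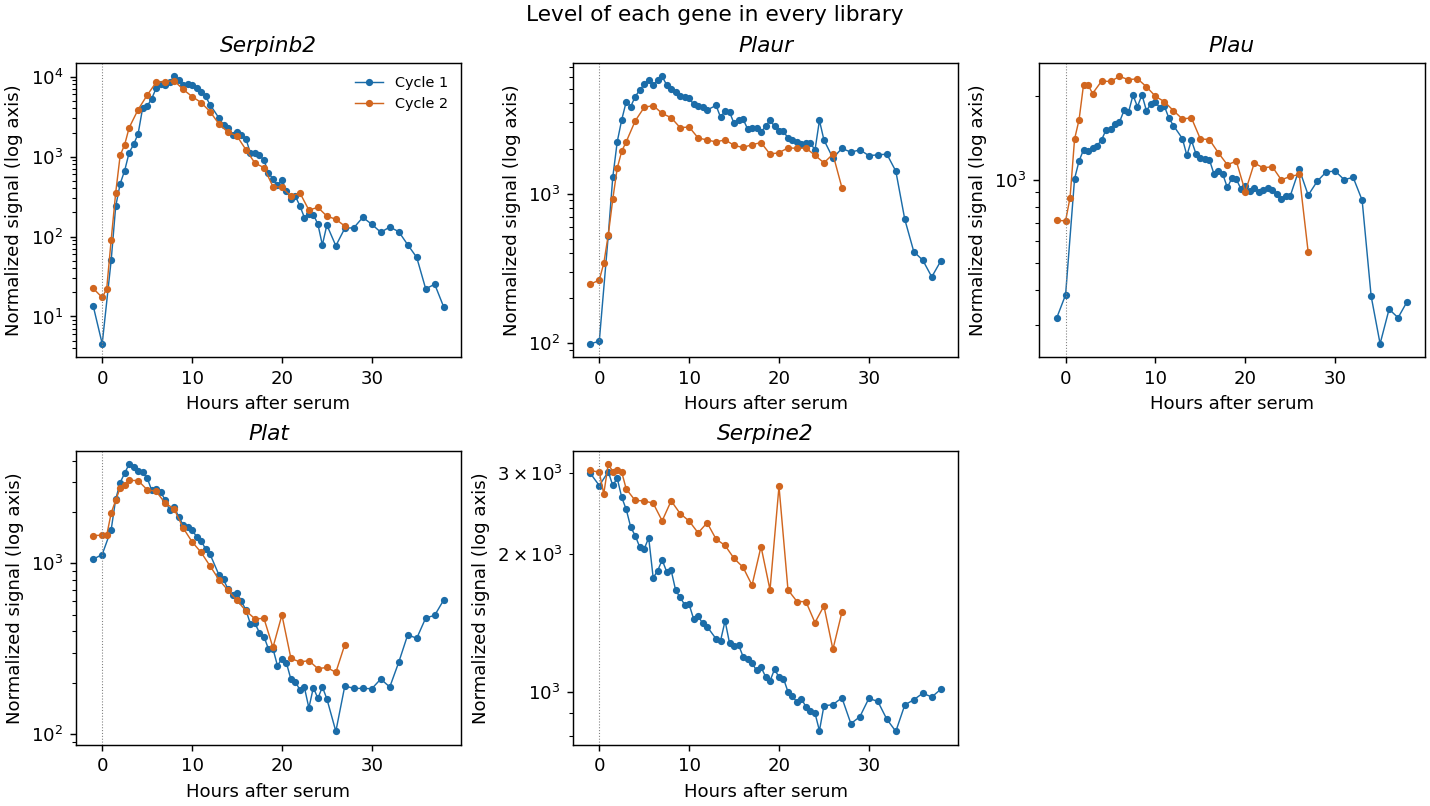
The normalized signal (log axis, with a separate range for each panel) of the 5 genes is plotted against the hour after serum in every library, with Cycle 1 in blue and Cycle 2 in orange and the addition of serum as a dotted line. Serpinb2 peaks at 8 h in both Cycles, Plat at 3 h, and Serpine2 falls through the course and stays higher in Cycle 2.

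Serpine2 encodes protease nexin 1, a secreted inhibitor of thrombin, urokinase and plasmin that binds to the matrix. It went the other way from Serpinb2 and fell slowly for a day. The starved libraries were at 3000 and 2820 in Cycle 1 and at 3042 and 3016 in Cycle 2. At 24 to 27 h the libraries of Cycle 1 ran from 823 to 971 and those of Cycle 2 from 1238 to 1540, with no overlap with the starved range. The lowest values were 820 at 33 h in Cycle 1 and 1238 at 26 h in Cycle 2, which are 0.282 and 0.409 of the starved mean.

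In the limma fit over all genes, the log2 change of Serpine2 against starved cells was -0.04 (SE 0.24, adjusted p = 0.911) at 1 to 3 h, and its sign turned to 0.11 and 0.22 when libraries were rescaled by the upper quartile or by the median ratio. It was -0.38 at 4 to 6 h, -0.53 at 7 to 10 h, -0.76 at 11 to 14 h and -0.98 (SE 0.25, adjusted p = 0.00135) at 15 to 18 h, short of the log2 size of 1 that a call needed. Serpine2 fell by the call at 19 to 23 h, with -1.14 (SE 0.24, adjusted p = 0.000169), and at 24 to 27 h, with -1.37 (SE 0.25, adjusted p = 2.67e-05). At 15 to 18 h it would be called at -1.01 without the 0 h library of Cycle 1, and without Cycle 1 it would not be called at 19 to 23 h, at -0.74. The 20 h library of Cycle 2 stood out for this gene with 2809, against 1670 at 19 h and 1670 at 21 h, and leaving it out changed no call.

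Plau encodes urokinase, the activator that works at the cell surface. It rose within the first hour and came down over the rest of the day. In starved cells it was at 317 and 385 in Cycle 1 and at 714 and 710 in Cycle 2. At 1 h it was at 1007 in Cycle 1 and 1399 in Cycle 2, and at 0.5 h of Cycle 2 it was already at 862. The peak was 2020 at 8.5 h in Cycle 1 and 2351 at 6 h in Cycle 2, which are 5.76 and 3.30 times the starved mean. The Cycles reached nearly the same height from starved levels that differed by a factor of 2.03.

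Against starved cells the log2 change of Plau was 1.58 (SE 0.20, adjusted p = 4.68e-08) at 1 to 3 h, 1.89 at 4 to 6 h and 1.99 (SE 0.20, adjusted p = 9.51e-10) at 7 to 10 h in limma. It then declined to 1.71 at 11 to 14 h, 1.25 at 15 to 18 h, 1.02 (SE 0.20, adjusted p = 5.07e-05) at 19 to 23 h and 0.85 (SE 0.20, adjusted p = 0.000709) at 24 to 27 h, the last below the size for a call. The calls of the later windows depend on the starved libraries. Without the -1 h library of Cycle 1 the change was 0.96 at 15 to 18 h and 0.73 at 19 to 23 h, and without the 0 h library of Cycle 1 it was 0.80 at 19 to 23 h. Without the -1 h or the 0 h library of Cycle 2 it was 1.14 or 1.07 at 24 to 27 h and would be called. The change of Cycle 1 alone at 24 to 27 h was 1.39 and that of Cycle 2 alone 0.30, the latter with 998, 1026, 1043 and 547 at the 4 hours, of which the 27 h library was below both starved libraries.

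Plat encodes tissue-type plasminogen activator, the activator best known for dissolving clots. It was the first of the 5 to turn, rising to a peak at 3 h and then falling to far below its starved level. In starved cells it was at 1058 and 1128 in Cycle 1 and at 1455 and 1464 in Cycle 2. At 3 h it was at 3821 in Cycle 1 and 3065 in Cycle 2, or 3.50 and 2.10 times the starved mean. At 26 h it was at 104 and 230, or 0.0950 and 0.158 of that mean. In Cycle 1 the 25 h and 27 h libraries were at 161 and 192, so the fraction of 0.0950 rests on the 26 h library alone. Every library from 15 h to 27 h of both Cycles lay below the starved range of its Cycle.

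In limma the log2 change of Plat was 1.06 (SE 0.18, adjusted p = 8.32e-06) at 1 to 3 h and 1.22 (SE 0.19, adjusted p = 3.13e-06) at 4 to 6 h. It was 0.55 at 7 to 10 h and -0.43 at 11 to 14 h, neither called. Plat then fell by the call, with -1.32 (SE 0.18, adjusted p = 4.80e-07) at 15 to 18 h, -2.27 (SE 0.18, adjusted p = 3.51e-12) at 19 to 23 h and -2.67 (SE 0.18, adjusted p = 1.91e-13) at 24 to 27 h. The early rise was close to the size for a call: at 1 to 3 h it was 0.95 without the -1 h and 0.97 without the 0 h library of Cycle 1, and in Cycle 2 alone it was 0.82 at 1 to 3 h and 0.94 at 4 to 6 h. The late fall was called under all 17 alternatives run in each of the last 3 windows.

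Plaur encodes the urokinase receptor, which is tied to the membrane by a lipid anchor. It had the largest change of the 4 tested genes and kept much of it for a day. In starved cells it was at 99.2 and 103 in Cycle 1 and at 248 and 265 in Cycle 2. At 3 h it was at 4114 in Cycle 1 and 2220 in Cycle 2, and its peaks were 6064 at 7 h and 3878 at 6 h, or 60.0 and 15.1 times the starved mean. All 61 libraries after serum in Cycle 1 and all 30 in Cycle 2 were above both starved libraries of their Cycle.

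The log2 change of Plaur in limma was 3.21 (SE 0.26, adjusted p = 9.10e-12) at 1 to 3 h, 4.70 (SE 0.29, adjusted p = 9.11e-15) at 4 to 6 h and 4.58 (SE 0.27, adjusted p = 5.54e-15) at 7 to 10 h. It was 4.17 at 11 to 14 h, 3.92 at 15 to 18 h, 3.76 at 19 to 23 h and 3.44 (SE 0.27, adjusted p = 4.19e-12) at 24 to 27 h. Plaur was called in all 7 windows, and under all 17 alternatives in each. The Cycles differ in size, with a log2 change at 4 to 6 h of 5.62 in Cycle 1 and 3.79 in Cycle 2, from starved means of 101 and 256. In the 24.5 h library of Cycle 1 Plaur was at 3083, against 1944 at 24 h and 2283 at 25 h. That library differed from its neighbours more than any other, with a median log2 distance of 0.41 over 9112 genes.

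**Figure D2:**
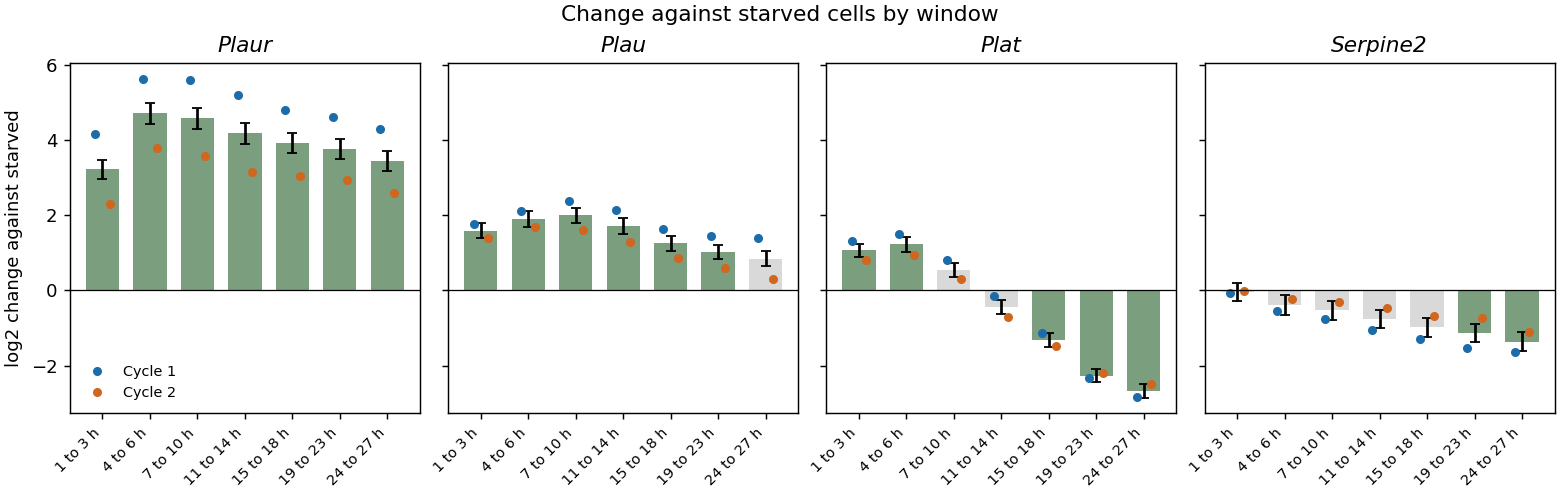
Bars give the limma log2 change against starved cells in each of 7 windows, with the SE as error bars, green where called and grey where not, and dots give the change in Cycle 1 (blue) and Cycle 2 (orange). Plaur is called in all 7 windows, Plau in the first 6, Plat higher in the first 2 and lower in the last 3, and Serpine2 lower in the last 2.

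Set against all genes, 3 of the 4 tested genes were called higher at 1 to 3 h, where 5.12% of all genes were, and the same 3, Plau, Plat and Plaur, at 4 to 6 h, where 7.42% were. Plau and Plaur were called higher at 7 to 10 h (6.98% of all genes), 11 to 14 h (6.72%), 15 to 18 h (6.63%) and 19 to 23 h (6.74%), and Plaur alone at 24 to 27 h (6.13%). Lower calls were Plat at 15 to 18 h, where 16.1% of all genes were called lower, and Plat and Serpine2 at 19 to 23 h (17.8%) and 24 to 27 h (18.5%). The median log2 change over all genes was between -0.26 at 1 to 3 h and -0.12 at 15 to 18 h, so the members' rises stand above it and the late falls of Plat and Serpine2 below it. Rescaling by the median ratio moved that median to -0.02 at 1 to 3 h. The share of calls that were higher was then 53.2% at 1 to 3 h and 40.0% at 4 to 6 h, and 44.2% and 32.0% with the upper quartile, in place of 31.2% and 28.4%. The 7 windows share the same starved libraries.

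The order in which the genes turned on and off was alike in both Cycles, except between Plau and Plaur on the way down. The first hour at or above the midpoint between the starved mean and the peak was 2 h in Cycle 1 and 1.5 h in Cycle 2 for Plau and for Plat, 2.5 h and 3 h for Plaur and 5.5 h and 5 h for Serpinb2. After the peak, the level first dropped under that midpoint at 7 h in both Cycles for Plat, at 12 h in both for Serpinb2, at 15 h and 16 h for Plaur and at 15.5 h and 15 h for Plau. Serpinb2 was thus the last of the rising genes to reach its midpoint and yet left it before Plau and Plaur. After 3 h Cycle 2 was sampled every 1 h, which limits the order of neighbours there. From 10 h to 23 h Plat lost 0.26 (SE 0.0044) per hour on the log2 scale in Cycle 1 and 0.18 (SE 0.013) in Cycle 2, a halving every 3.89 h and 5.60 h. Without the 20 h library of Cycle 2 the latter was 5.33 h. The SEs of the Plat slopes also take the libraries of a course as independent. Plau fell by 0.08 per hour in each Cycle, and Plaur by 0.07 and 0.03.

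Levels of different genes were compared per kilobase of exon, with exon lengths of the same mouse build. For Serpinb2 the length joins the exons of 4 annotated transcripts, while its value is an average over transcripts. Its place among the 5 is therefore less certain. In starved Cycle 1 cells Serpine2 was the highest of the 5 with 760 ± 33.2 (SD, n = 2) per kilobase, followed by Plat with 432 ± 19.5, Plau with 150 ± 20.4, Plaur with 72.4 ± 1.94 and Serpinb2 with 3.85 ± 2.70. At 7 to 10 h of that Cycle Serpinb2 was at 3621 ± 338 (SD, n = 7), Plaur at 3512 ± 446, Plau at 803 ± 46.3, Plat at 752 ± 117 and Serpine2 at 447 ± 40.9 per kilobase. Serpinb2 and Plaur overlapped there, from 3376 to 4278 and from 3105 to 4344, and so did Plau and Plat, from 745 to 862 and from 621 to 935, so neither pair can be put in order. At 24 to 27 h Plaur was the highest of the 5 with 1582 ± 378 (SD, n = 5), then Plau with 390 ± 42.4, Serpine2 with 238 ± 14.7, Plat with 63.8 ± 14.0 and Serpinb2 with 48.1 ± 14.0 per kilobase. The ranges of the last 2 overlap across hours, but in each library of that window Plat was above Serpinb2. Each SD of these levels is over the hours of 1 course and not over replicates. The highest Plaur value of that window, 2208 per kilobase, was that of the 24.5 h library, and without it Plaur was at 1425 ± 164 (SD, n = 4). In Cycle 2 at 7 to 10 h Serpinb2 was at 3206 ± 654 (SD, n = 4) per kilobase, from 2400 to 3784, and Plaur ran from 1976 to 2458. These ranges overlap only across different hours, and in each library of that window Serpinb2 was above Plaur. Serpine2 was at 639 ± 30.9 in these libraries, from 616 to 682, inside the range of Plat from 529 to 892. Plat was above Serpine2 at 7 h and below it at 10 h, so the lower end of the order was not set in that Cycle.

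Late hours were also compared with 4 to 10 h, a contrast that does not use the starved cells. Plat was lower at 24 to 27 h, with a log2 difference of -3.50 (SE 0.13, adjusted p = 3.11e-20 in limma). Plaur was lower with -1.19 (SE 0.20, adjusted p = 6.68e-06), and Plau with -1.11 (SE 0.15, adjusted p = 1.74e-07). Serpine2 differed by -0.90 (SE 0.18, adjusted p = 0.0001), which did not reach the size for a call. The 3 lower calls compare with 8.73% of all genes called lower in this contrast, where 5.05% were called higher. Without Cycle 2 the difference of Plau was -0.89, below the size for a call, and that of Serpine2 was -1.04, above it.

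Cycle 1 alone goes on to 38 h, and its late libraries, which entered no test, show another change. From 28 h to 33 h Plau ran from 843 to 1074 and Plaur from 1413 to 1960, each library above the starved range of Cycle 1. At 34, 35, 36, 37 and 38 h Plau was at 381, 257, 342, 318 and 364, around or below the starved values of 317 and 385. At the same 5 hours Plaur was at 672, 409, 359, 278 and 354 and Serpinb2 at 78.9, 54.8, 22.2, 25.3 and 13.2. Plat moved the other way and was at 382, 364, 479, 497 and 610, up from between 185 and 264 at 28 to 33 h. Serpine2 was at 937, 962, 994, 975 and 1014 and so stayed low, at 0.335 of its starved mean over these hours. In Cycle 2 the 27 h library, the last of that course, differed from 26 h in the same directions, with Plau at 547 after 1043, Plaur at 1097 after 1833, Serpinb2 at 135 after 164 and Plat at 335 after 230. With 1 library an hour, these steps have no replicate check beyond the neighbouring hours.

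**Figure D3:**
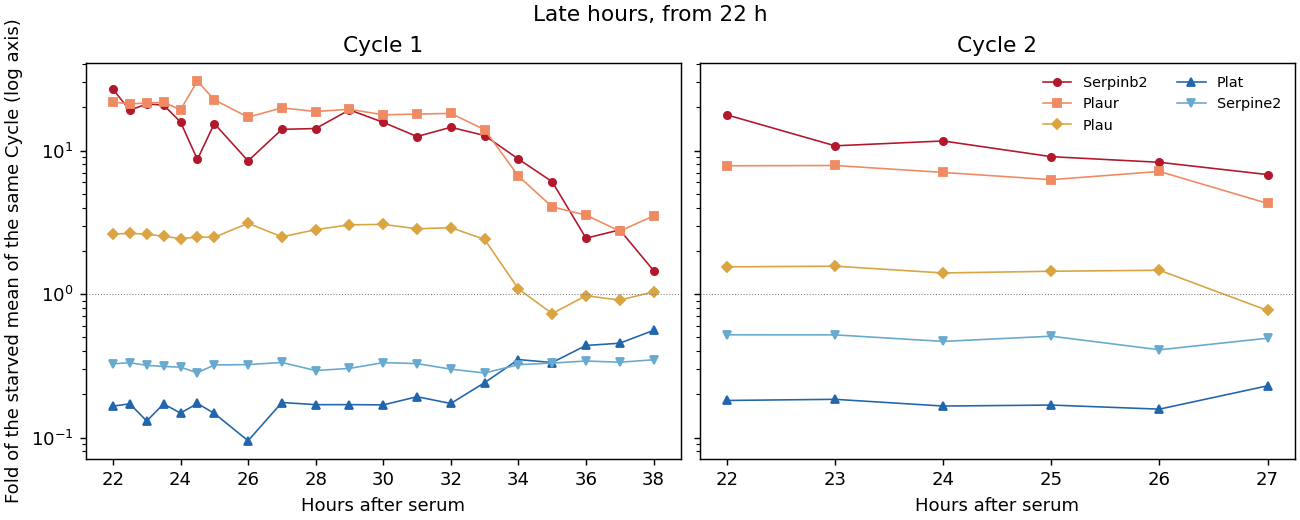
The level of the 5 genes from 22 h on is plotted as the fold of the starved mean of the same Cycle (log axis) against the hour after serum, with Cycle 1 on the left and Cycle 2 on the right. After 33 h in Cycle 1 Serpinb2, Plau and Plaur drop and Plat climbs, and the last library of Cycle 2 moves in the same directions.

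At matched hours after serum the Cycles differed most evenly for Serpine2 and Plaur. Serpine2 was higher in Cycle 2 at 29 of 29 shared hours, with a median ratio of 1.52, although the starved ratio was 1.04. Plaur was higher in Cycle 2 at 2 of 29 hours, with a median ratio of 0.688 against 2.53 in starved cells. The median ratio was 1.20 for Plau, which was higher in Cycle 2 at 26 hours, 1.07 for Serpinb2 and 0.985 for Plat. These are counts over hours of 2 courses, which are not independent replicates of a Cycle, and no test was made.

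The genes whose course was most like that of Serpinb2 were sought over all libraries of each Cycle by Pearson's r of the log2 value, ranked by the lower r of both Cycles among 12803 genes with a mean value of at least 10. The first was Mmp10, a secreted matrix metalloproteinase, with r = 0.987 over 63 libraries and 0.977 over 32. It was at a starved mean of 6.79 in Cycle 1 and 20.9 in Cycle 2 and peaked at 2310 and 2524, both at 8 h, the hour of the Serpinb2 peak. Next came Ramp3, a receptor activity-modifying protein, with a lower r of 0.954, Tnfrsf26, a receptor of the tumour necrosis factor family, with 0.952, Glrx, the redox enzyme glutaredoxin, with 0.951, and Procr, the endothelial protein C receptor, with 0.949. Ramp3 peaked at 1953 at 7 h and 1990 at 6 h, Glrx at 1466 at 7 h and 1409 at 6 h, and Procr at 1277 at 7 h and 1036 at 5 h, so all of these were earlier than Serpinb2. Libraries of a course share their order in time, so a high r says only that the courses have a like shape. By the same measure Plau ranked 55 with 0.870, Plaur 57 with 0.866, Plat 1548 with 0.381 and Serpine2 3225 with 0.125. With Spearman's rho 3 of the first 5 stayed, Mmp10, Tnfrsf26 and Glrx.

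**Figure D4:**
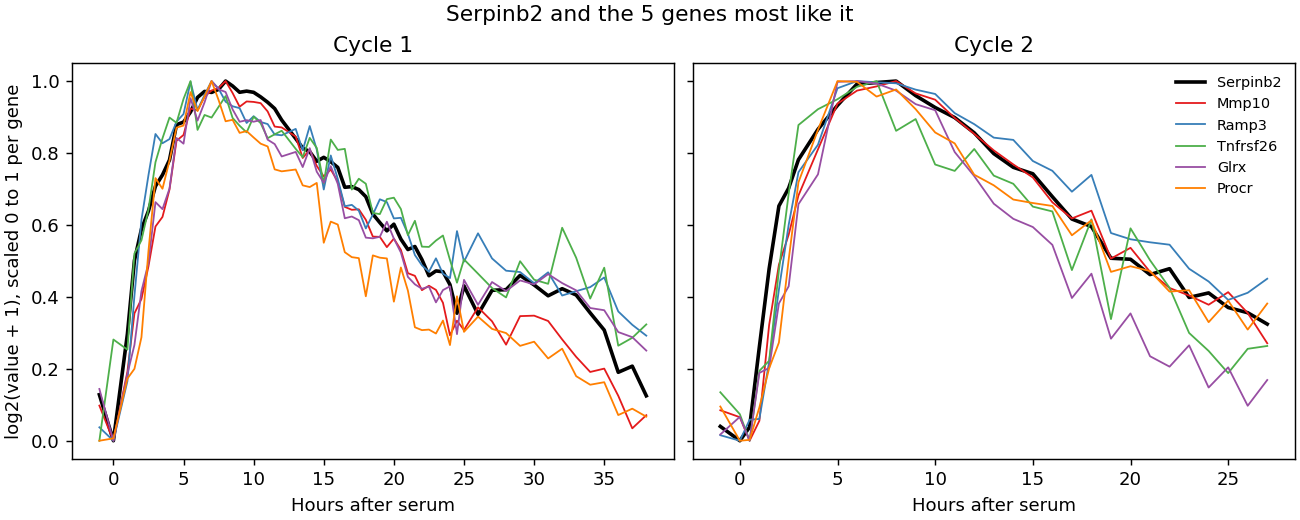
The log2(value + 1) of Serpinb2 (black) and of the 5 genes with the most similar course, scaled for each gene from its lowest to its highest library, is plotted against the hour after serum in Cycle 1 (left) and Cycle 2 (right). Mmp10 runs closest to Serpinb2, with its peak at 8 h in both Cycles.

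Other genes of plasminogen activation were looked up as a list of 14, of which 8 are in the table. Serpinf2 was called higher in at least 1 window and Serpina5, Hpn, St14 and Hgf lower, against 13.8% and 32.6% of all genes and 45.6% in either direction. Hgf, a growth factor that resembles plasminogen in sequence, had its largest fall at 19 to 23 h with -1.56. Serpinf2, the plasmin inhibitor, was at most 8.40 in any library, Serpina5 at most 9.51 and Hpn at most 11.7, so these calls rest on few reads. St14 was low as well, with at most 25.2. The plasminogen gene itself, Plg, is not among the genes of the table.

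Among 19 genes of cell-surface partners and clearance receptors, 5 were called higher in at least 1 window and 7 lower, against 13.8% and 32.6% of all genes. The higher ones were Itgb3, Itga5, Lrp2, Lrp8 and Eno1. Itga5, the fibronectin receptor subunit that can pair with the urokinase receptor, rose with a log2 change of 2.26 at 1 to 3 h and 2.87 at 4 to 6 h, and was still at 2.17 at 24 to 27 h. Itgb3, the vitronectin receptor subunit, rose in a pulse, with 3.27 at 4 to 6 h, 2.82 at 7 to 10 h and 0.03 at 24 to 27 h. The clearance receptors split. Lrp2 rose to 2.47 at 24 to 27 h and Lrp8 to 1.34 at 11 to 14 h. Lrp1, the main scavenger of inhibitor complexes in fibroblasts, fell to -1.10 at 11 to 14 h, and Vldlr to -1.44 at 19 to 23 h. Sorl1, a sorting receptor, fell to -2.63 at 24 to 27 h. Igf2r, Mrc2, Sort1 and Vtn were called lower as well, the last with at most 8.1 in any library. The median of the list was -0.14 at 4 to 6 h, when that of all genes was -0.26. The rise of Lrp8 was that of Cycle 1, from a starved mean of 84.9 to 580, while in Cycle 2 it went from 319 to at most 382 and 20 of 30 libraries were below both starved libraries. Eno1 likewise reached 6.71 times its starved mean in Cycle 1, in the 24.5 h library, and at most 1.25 times in Cycle 2, where 15 of 30 libraries were below both starved libraries. It has near-identical copies that could share its reads, so its call is uncertain.

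Serpinb2 belongs to clade B, the serpins that lack a classical secretion signal. Of 26 other members of the clade listed, 10 are in the table, 4 called higher in at least 1 window and 4 lower, against 13.8% and 32.6% of all genes. Serpinb10, which RefSeq places beside Serpinb2, rose in the same hours and had its peak of 58.4 in Cycle 1 and 40.2 in Cycle 2 at 6 h in both. Its log2 change was 4.21 at 4 to 6 h on the log2(value + 1) scale, from starved values of 4.51 and 0.912 in Cycle 1 and of 0 in both Cycle 2 libraries. Serpinb8, the next gene of the cluster in the mm9 annotation, at chr1:109486583-109505486, rose earlier and more briefly, to 405 at 4.5 h in Cycle 1 and 249 at 4 h in Cycle 2. Its log2 change was 2.22 at 4 to 6 h and 0.05 at 11 to 14 h. Serpinb7, on the other side of Serpinb2 at chr1:109296232-109349266, was at most 6.38 and was listed at 0 in 66 libraries. It was called lower, although both starved libraries of Cycle 2 are listed at 0, so that call comes from Cycle 1. These neighbours of Serpinb2 thus had lower levels, and in likeness of course Serpinb10 ranked 61 and Serpinb8 ranked 1341. Away from the cluster, Serpinb9b was higher by 2.78 at 7 to 10 h and Serpinb1b by 1.28, the latter with at most 17.0 in any library. At 24 to 27 h the log2 change was -3.05 for Serpinb1a, -2.02 for Serpinb9 and -1.19 for Serpinb6b. The Serpinb1, Serpinb6 and Serpinb9 genes are families of close copies, so reads could be split among them and their values are uncertain.

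Of 17 secreted serpins of other clades 11 are in the table, and 4 were called higher and 7 lower in at least 1 window, 3 of them in both directions, against 13.8% and 32.6% of all genes called higher and lower. Serpina3h and Serpina3i rose by 2.60 at 1 to 3 h and were at -1.15 and -1.14 at 24 to 27 h, and Serpina3f went from 1.10 to -2.69. The largest falls at 24 to 27 h were those of Serpina3n with -3.41, Serpina3g with -3.30 and Serpina3m with -2.78, all of the acute-phase antichymotrypsin family whose copies are close enough to share reads. Serping1, the complement C1 inhibitor, fell to -2.36. Serpina9 was called higher with at most 6.17 in any library. At 24 to 27 h the median of the list was -1.15 and that of all genes -0.17.

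On the thrombin and tissue factor side 13 of 14 listed genes are in the table. F2r, F2rl1, Thbd, Procr and Tfpi2 were called higher in at least 1 window, and Pros1 and Gas6 lower, against 13.8% and 32.6% of all genes. Tfpi2, a matrix-bound inhibitor of plasmin and other serine proteases, rose by 3.53 at 7 to 10 h, from starved values of 64.6 and 65.6 to 2154 at 8 h in Cycle 1. In Cycle 2 it went from 130 and 117 to 668 at 10 h, a smaller rise. F2rl1, a protease-activated receptor, rose by 3.07 at 4 to 6 h, and Procr by 3.43 at 7 to 10 h. Thbd, which encodes thrombomodulin, rose by 1.51 at 7 to 10 h, and F2r, the thrombin receptor, by 1.41 at 24 to 27 h. Gas6, a vitamin K-dependent ligand first found in growth-arrested fibroblasts, fell by 2.27 on the log2 scale at 11 to 14 h, and Pros1, its relative protein S, was at -1.23 at 24 to 27 h. The median of the list was 1.06 at 4 to 6 h, against -0.26 for all genes. That median is the value of F2rl3, which was not called and was at most 5.99 in any library, so it rests on few reads.

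**Figure D5:**
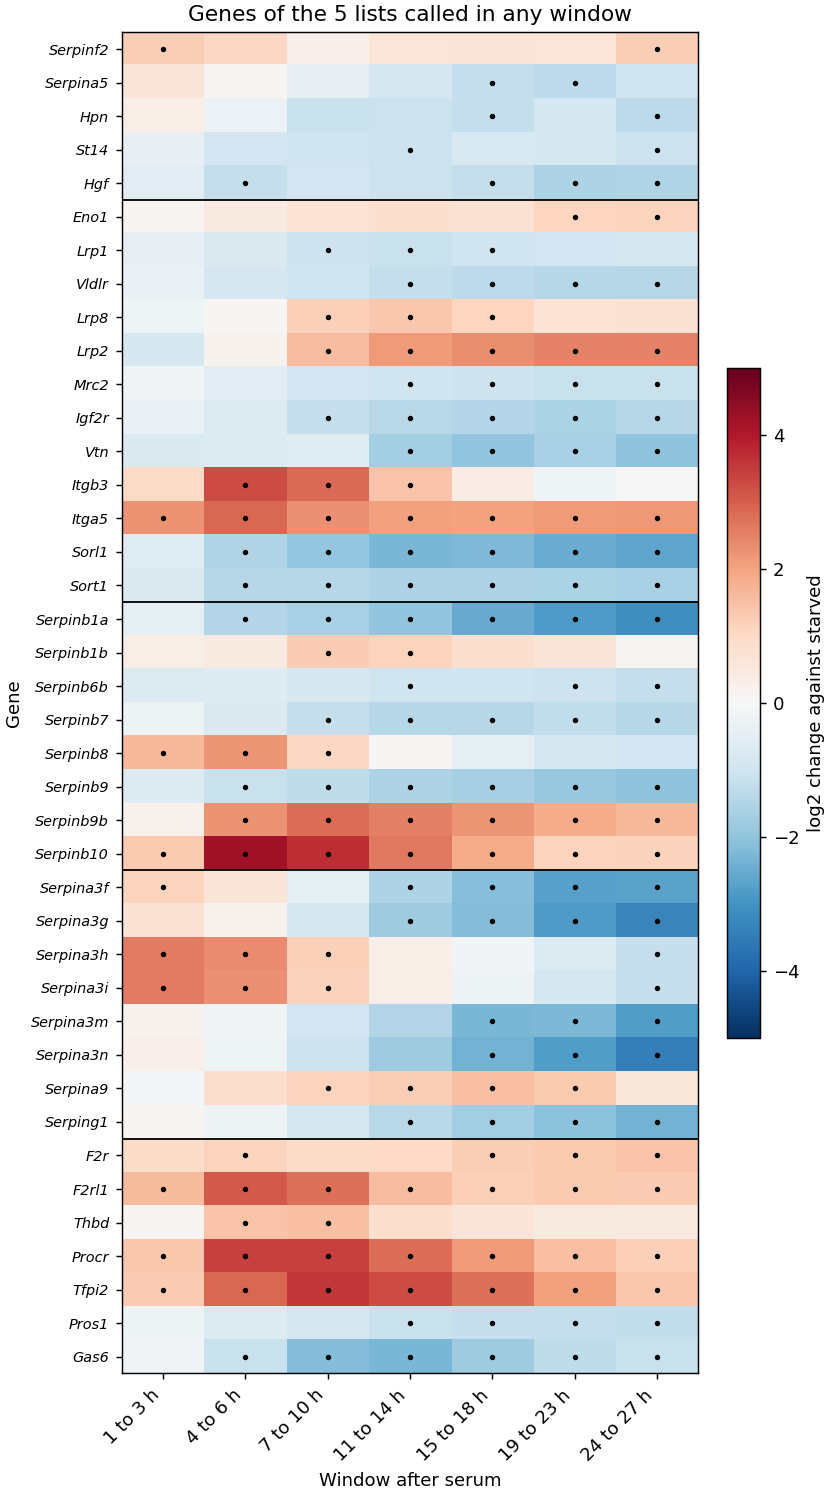
The colour gives the limma log2 change against starved cells in each window (red higher, blue lower, scale from -5 to 5) for the genes of the 5 lists called in at least 1 window, with a black dot where the window was called and lines between the lists. Itga5, F2rl1 and Procr are red in all 7 windows, and Itgb3 and Serpinb8 are red in the early windows and not in the last.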

How the data were processed

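Poly(A) RNA of MEF primary cells was sequenced at 96 time points of 2 courses. Per the labels, the authors demultiplexed with CASAVA, aligned with STAR to mm9 and counted reads on exons of both strands with HOMER, whose versions are not given in the sources used here. The deposited values are a normalized signal per gene, scaled to a total of 10000000, so reads of a gene and of an overlapping antisense gene cannot be told apart. The table holds genes whose highest value is at least 3.97. The Serpinb2 value is an average over transcripts, finer than 3 decimals in 40 of 95 libraries. Columns were matched to libraries by name, and 1 column that matches no library was not used. Depth per library was taken from the value of 1 read.

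Differences from starved cells were fitted on log2(value + 1) by limma 3.58.1 (R 4.3.3), taking the hour as factor, over the 62 libraries at the 31 hours present in both courses (31 residual degrees of freedom). A window is the mean of its hours minus the mean of -1 h and 0 h. P-values were adjusted by Benjamini-Hochberg over 15895 genes, and a gene was called when that p was under 0.05 and its log2 change was over 1 in size. A fold change on this scale understates the change of low genes. The fit was tested on simulated data in which libraries varied independently, so that test does not cover the dependence within a Cycle given below. Cycles were treated as replicates of an hour without a block. The labels give each library its Cycle, and deviations of libraries of the same Cycle correlated above 0.1 in 443 of 465 pairs of hours, with a median r of 0.294 and a lowest r of 0.00531. The fit counts the hours of a course as independent. With 2 courses, the p-values therefore do not measure how far a change differs from course to course. Alternatives were other pseudocounts, a filter on low values, upper quartile and median ratio rescaling, a trend with robust variances, the Cycle as a block, the window as factor, 0 h alone as the reference, and leaving out a Cycle or a starved library. Leaving out the 20 h or 27 h library of Cycle 2, or the 24.5 h library of Cycle 1, was added after seeing the data. The members and lists were chosen with earlier results of these data known. A list gene and a marker gene are not reported here, and their lists were counted without them. The genes named are the 5 members, of each list the 4 called genes with the largest change and any group of 5 or fewer, and the 5 genes most like Serpinb2. Of the cell-surface list all called genes are named, and F2rl3 is named because it gives the median of its list. Gene positions and exon lengths come from the mouse annotation of the mm9 assembly, promoter windows from RefSeq. Python 3.11.15, pandas 2.3.3, scipy 1.17.1 and matplotlib 3.10.9 were used.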

Additional observations from a re-analysis of the deposited data

Results flagged for a closer look

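Libraries of Cycle 1 later than 27 h have no counterpart in Cycle 2 and entered no test. At 28 to 33 h Plau was at 2.84-fold and Plaur at 17.7-fold of the starved mean of Cycle 1, and at 34 to 38 h Plaur was at 4.1-fold, with every library of these spans above both starved libraries. The spans were set after the values were seen, and no group of the labels has enough libraries for a check of single outlying samples.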

How the results depend on the processing

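Of 544 recomputed values of the 4 tested genes, from 32 comparisons under 17 alternatives, 519 kept their direction and their side of the threshold, 14 lost a call, 9 gained one and 2 changed sign. The sign changes were those of Serpine2 at 1 to 3 h, 0.11 with upper quartile and 0.22 with median ratio rescaling. Serpine2 at 15 to 18 h was called with -1.02 under the upper quartile and -1.08 with the window as factor. Plau at 19 to 23 h lost its call with just under 1.00 under the upper quartile, 0.98 with the window as factor and 0.95 with 0 h alone as the reference. The replicate block, with the Cycle as a term, changed no call of the 4 genes, for example Plau 1.02 at 19 to 23 h.

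With a Cycle or a starved library left out, Plat ranged from 0.82 to 1.31 at 1 to 3 h and from 0.94 to 1.49 at 4 to 6 h. Plau ranged from 0.86 to 1.64 at 15 to 18 h, 0.60 to 1.41 at 19 to 23 h and 0.30 to 1.38 at 24 to 27 h, and from -1.35 to -0.89 for late against 4 to 10 h. Serpine2 ranged from -1.07 to -0.46 at 11 to 14 h, -1.30 to -0.67 at 15 to 18 h and -1.52 to -0.74 at 19 to 23 h, and from -1.04 to -0.83 for late against 4 to 10 h. The number of genes called ranged from 1577 to 3769 at 1 to 3 h, 2170 to 5115 at 11 to 14 h, 2310 to 5194 at 15 to 18 h, 2414 to 5596 at 19 to 23 h and 2338 to 5924 at 24 to 27 h. Against 2606, 4150, 3680, 3567, 3613, 3908, 3911 and 2190 genes called in the 7 windows and the late contrast, a pseudocount of 10 gave 1543, 2656, 2325, 2203, 2217, 2431, 2412 and 1229. The highest fold of Serpinb2 in Cycle 1 was 2204 with 0 h alone as the reference, and Spearman's rho kept 3 of the 5 genes most like it. Beyond the construction of each alternative, the cause was not tested. Counting error limits genes at a few reads, such as starved Serpinb2, and hours with 1 library have no replicate.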
